A study of Homo sapiens with 24 samples.

Results

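The genes described here are 10 that were followed across all 8 groups of a study of asparagine withdrawal in PC9 cells, a human line of non-small cell lung cancer. They are KIF21B, RNF144B, LMO4, TNFSF15, TSC22D3, VLDLR, CNNM1, TBC1D30, ZNF488 and PPARGC1B. The genes were chosen for large changes after 6 h without asparagine in vehicle, several of them reversed by ISRIB, and for lying outside the usual target lists of the amino acid response. All 10 were found among 37411 genes in the count table, and all 10 passed the filter on low counts that left 17409 genes for testing. The choice used 2 contrasts, withdrawal with vehicle at 6 h and ISRIB against vehicle without asparagine at 6 h, so values from them are given here as a description without a test.

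Cells growing in dishes for 2 days were rinsed and given RPMI medium with or without asparagine, either with 200 nM ISRIB or with the vehicle, 0.004% DMSO, and were harvested 6 or 24 h later. The 8 groups were thus vehicle with asparagine, vehicle without asparagine, ISRIB with asparagine and ISRIB without asparagine, each at 6 h and at 24 h, with 3 biological replicates. Every group came from this single line and received fresh medium at the start of its treatment. Whether replicates of the same number shared a day or a passage was not stated. Total counts ran from 16737384 to 27495861 per library.

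Cells sense a missing amino acid through uncharged tRNA, which activates the kinase GCN2. GCN2 phosphorylates the translation factor eIF2, general protein synthesis slows, and translation of the transcription factor ATF4 increases, which in turn drives genes of amino acid synthesis, transport and tRNA charging. ISRIB binds eIF2B, the exchange factor that recycles eIF2, and keeps it active despite the phosphorylation. Asparagine synthetase, ASNS, is a classic ATF4 target. Its mean level was 29 CPM (read counts divided by library size, scaled with TMM factors) in vehicle with asparagine and 166 CPM without at 6 h, against 27.4 and 26.7 CPM in the corresponding ISRIB groups.

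The 10 genes have unrelated known roles. LMO4 is a LIM-only adaptor of transcription complexes, TSC22D3 encodes GILZ, a leucine zipper protein best known as a glucocorticoid-induced regulator, ZNF488 is a zinc finger transcriptional regulator, and PPARGC1B is a coactivator of nuclear receptors that promotes mitochondrial gene expression. TNFSF15 is a ligand of the tumour necrosis factor superfamily, and VLDLR is a receptor for reelin and lipoproteins. KIF21B is a kinesin motor that acts on microtubule growth, RNF144B is a RING-between-RING ubiquitin ligase, TBC1D30 is a GTPase-activating protein for Rab proteins, and CNNM1 belongs to a family of membrane proteins linked to magnesium handling.

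Of the line's markers, KRT8 was between 3566 and 4537 CPM and EPCAM between 437 and 515 CPM in group means. The lung lineage genes NKX2-1, NAPSA and SFTPB stayed at or below 0.501 CPM in every group mean. Of 11 markers of fibroblasts, endothelium and blood, 3 passed the filter. The endothelial marker CDH5 lay between 32.6 and 43.8 CPM at 6 h and between 3.60 and 6.79 CPM at 24 h. COL1A1, a fibroblast collagen, and PECAM1, an endothelial marker, changed in the 24 h comparisons given further on. The part of these markers in the results was not tested. Counts declined most steeply with transcript GC content in 3 libraries: the third replicate of ISRIB with asparagine at 24 h with a slope of -0.37 log2 per 10 percentage points of GC, the third of ISRIB without asparagine at 6 h with -0.35, and the first of ISRIB with asparagine at 6 h with -0.19. The last was close to the next libraries, 2 of vehicle without asparagine at 24 h with -0.17. Calls of the 10 genes that changed without these 3 libraries are given with and without them.

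Promoter sequence is shown for 3 genes that were higher at 6 h in vehicle without asparagine, RNF144B, VLDLR and TSC22D3, and for CNNM1, which was lower, because it held a match to a motif. RefSeq windows of 250 bases before and 50 bases after a start were at hand for 7 of the 10 genes, 11 windows in all on GRCh38.p14, and each was searched on both strands for TGATGNAA, the element bound by C/EBP-ATF dimers, TGACGTCA, the cAMP response element, CACGTG, an E-box, and GTAAACA, a FOXO motif. The stretches below are upstream of the start on the gene's own strand, and capitals mark a match. The RNF144B stretch is chr6:18387100-18387349 on the plus strand, the VLDLR stretch chr9:2621537-2621786 on the plus strand, and the TSC22D3 stretch chrX:107717136-107717312 on the minus strand. The last precedes an internal start that lies 60280 bases inside the longest gene model, is used by shorter transcripts, and is cut where an exon begins. For CNNM1 only the 30 bases around a match, chr10:99329272-99329301 on the plus strand, are shown. The RefSeq start of CNNM1 lies 257 bases inside the longest gene model, so these 30 bases lie within that model.
RNF144B: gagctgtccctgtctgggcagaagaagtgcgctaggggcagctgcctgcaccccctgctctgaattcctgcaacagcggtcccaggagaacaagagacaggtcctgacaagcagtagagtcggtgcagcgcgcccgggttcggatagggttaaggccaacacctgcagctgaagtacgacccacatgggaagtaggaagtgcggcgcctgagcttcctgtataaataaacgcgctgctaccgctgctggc
VLDLR: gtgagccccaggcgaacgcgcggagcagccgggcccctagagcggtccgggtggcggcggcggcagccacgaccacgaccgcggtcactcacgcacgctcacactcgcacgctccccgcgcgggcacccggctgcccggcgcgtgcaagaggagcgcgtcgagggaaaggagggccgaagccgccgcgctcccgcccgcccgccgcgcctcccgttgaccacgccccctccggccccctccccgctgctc
TSC22D3: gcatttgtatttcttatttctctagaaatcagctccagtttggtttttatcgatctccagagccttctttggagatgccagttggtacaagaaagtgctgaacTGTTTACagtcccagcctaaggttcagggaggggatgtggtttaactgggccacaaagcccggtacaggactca
CNNM1: gcagtgggcgtaCACGTGgtgacctgcctg
TGATGNAA was in 0 of the 11 windows, against 3.62% of 35116 windows of all genes, and TGACGTCA was in 0, against 1.85%. CACGTG occurred in the CNNM1 window from 72 to 67 bases before the start and again from 8 to 13 after it, and 7.26% of all windows held it. GTAAACA lay on the opposite strand of 1 of the 4 TSC22D3 windows, the one shown, and in no other window of the 10 genes. It was 147 to 141 bases before that start, where the printed strand reads its reverse complement. Of all windows 3.42% held the motif. These windows cover only a short part of each gene's regulatory sequence. The only windows of TNFSF15 and PPARGC1B were at starts 13596 and 41642 bases inside the longest gene model. The sequence before the outermost starts of those genes was not searched. Of the 11 windows 4 were of TSC22D3.

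**Figure D1:**
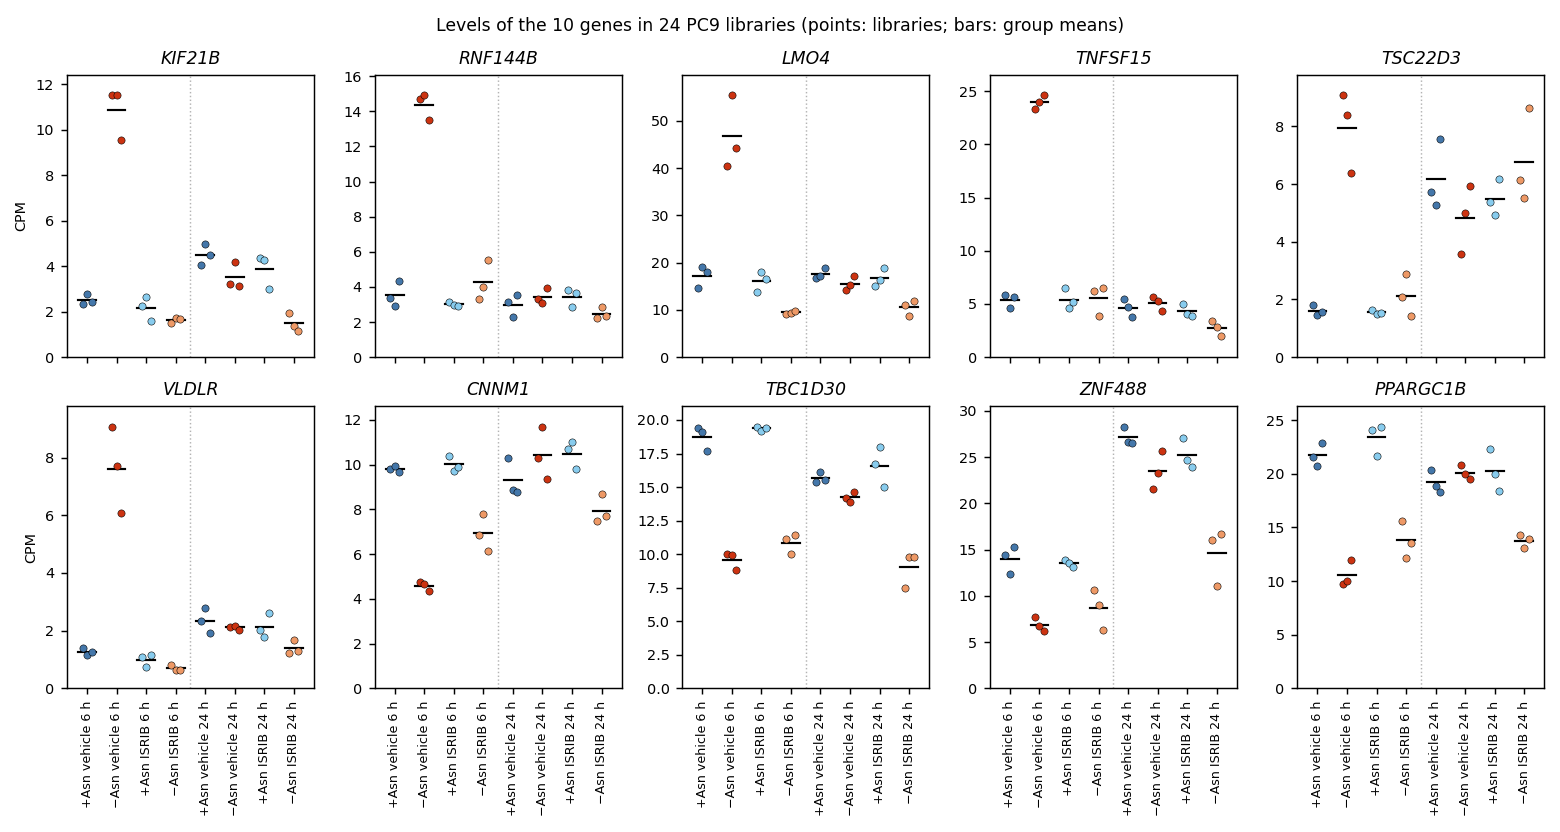
Level of each of the 10 genes in CPM (linear axis from 0) in the 24 libraries, with 1 point per library and a bar at the mean of 3. The vehicle libraries without asparagine at 6 h are the highest for KIF21B, RNF144B, LMO4, TNFSF15 and VLDLR, while for the lower 4 genes both groups without asparagine at 6 h lie below those with it.

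After 6 h without asparagine in vehicle, 6 genes were higher than with asparagine (KIF21B, RNF144B, LMO4, TNFSF15, TSC22D3 and VLDLR) and 4 were lower (CNNM1, TBC1D30, ZNF488 and PPARGC1B). Over all genes 3.31% passed the edgeR threshold upward and 1.26% downward, and the 3 libraries of the 2 groups did not overlap in 14.9% of genes upward and 13.1% downward. The members were chosen by this contrast, so nothing is read from their count. With ISRIB and no asparagine the 6 raised genes were lower than in vehicle without asparagine and the 4 others higher; in that contrast 1.64% of all genes passed downward and 0.551% upward, from which again nothing is read. For withdrawal in vehicle the raised genes were from 2.71-fold to 5.97-fold higher. The others were from 1.95-fold to 2.14-fold lower. In bulk RNA such as this, fewer cells carrying a transcript and less of it per cell cannot be told apart.

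Among the regulators of transcription, LMO4, the LIM-only adaptor (chr1:87328468-87348923, plus strand, hg38 with GENCODE 29), stood at 14.6, 19.1 and 18.1 CPM with asparagine and at 40.5, 55.4 and 44.3 CPM without. The groups did not overlap, and the log2 difference was 1.44 ± 0.14 (SE from the fit of 24 libraries). With ISRIB and no asparagine LMO4 stood at 9.18, 9.46 and 9.85 CPM, a log2 difference of -2.30 ± 0.15 from vehicle without asparagine. Those 3 libraries lay below all 3 vehicle libraries with asparagine too.

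TSC22D3, which encodes GILZ (chrX:107713221-107777342, minus strand), stood at 1.82, 1.46 and 1.55 CPM with asparagine and at 9.07, 8.39 and 6.38 CPM without. Its log2 difference was 2.30 ± 0.24, which ranked 19 among the 17409 genes from the largest rise down. With ISRIB the level without asparagine was 2.07, 2.87 and 1.43 CPM, a log2 difference of -1.89 ± 0.23 from vehicle. An exon of NCBP2L overlaps 71 bases of TSC22D3 on the opposite strand, and the strandedness of the counting was not stated.

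ZNF488, the zinc finger regulator (chr10:47365496-47384273, minus strand), had 14.4, 12.4 and 15.3 CPM with asparagine and 7.68, 6.70 and 6.18 CPM without, a log2 difference of -1.03 ± 0.16. PPARGC1B, the nuclear receptor coactivator (chr5:149730298-149855022, plus strand), had 21.6, 20.7 and 22.9 CPM with asparagine and 9.71, 10.0 and 12 CPM without, a log2 difference of -1.04 ± 0.11. Both were lower in all 3 libraries without asparagine. With ISRIB and no asparagine ZNF488 spread from 6.29 to 10.6 CPM and overlapped the vehicle libraries, and PPARGC1B, at 15.6, 12.2 and 13.6 CPM, lay just above them. ISRIB thus left a log2 difference from vehicle of 0.34 ± 0.17 for ZNF488 and of 0.39 ± 0.11 for PPARGC1B.

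Of the cell surface genes, the ligand TNFSF15 (chr9:114784635-114806126, minus strand) stood at 5.85, 4.59 and 5.64 CPM with asparagine and at 23.3, 24.0 and 24.6 CPM without. This was the tightest of the raised groups, with a log2 difference of 2.16 ± 0.19. Under ISRIB without asparagine it was at 6.21, 3.89 and 6.48 CPM, a range that overlapped that of vehicle with asparagine.

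VLDLR, the reelin and lipoprotein receptor (chr9:2621834-2660053, plus strand), stood at 1.41, 1.15 and 1.25 CPM with asparagine and at 9.07, 7.70 and 6.08 CPM without, a log2 difference of 2.58 ± 0.20. It showed the largest fold of the 10 genes, although its counts were small, from 10 to 170 reads per library. With ISRIB and no asparagine it stood at 0.796, 0.649 and 0.648 CPM, 10.8-fold lower than in vehicle. The antisense gene VLDLR-AS1 shares 738 exonic bases with it and had 0 to 8 counts in any library.

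CNNM1 (chr10:99329099-99394330, plus strand) had 9.79, 9.96 and 9.67 CPM with asparagine and 4.75, 4.68 and 4.34 CPM without, a log2 difference of -1.09 ± 0.12. With ISRIB and no asparagine it had 6.85, 7.79 and 6.16 CPM, between the other 2 groups and without overlap with either.

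Among the genes of motors, ubiquitin and vesicle traffic, KIF21B, the kinesin (chr1:200969390-201023700, minus strand), stood at 2.32, 2.76 and 2.44 CPM with asparagine and at 11.5, 11.5 and 9.55 CPM without. With ISRIB and no asparagine it stood at 1.49, 1.73 and 1.69 CPM. The log2 difference was 2.11 ± 0.19 for withdrawal in vehicle and -2.73 ± 0.20 for ISRIB against vehicle without asparagine. RNF144B, the ubiquitin ligase (chr6:18387350-18468874, plus strand), stood at 3.38, 2.92 and 4.34 CPM with asparagine and at 14.7, 14.9 and 13.5 CPM without. With ISRIB it stood at 3.29, 4.00 and 5.51 CPM without asparagine, a log2 difference of -1.76 ± 0.18 from vehicle. The vehicle libraries without asparagine were thus far above all others for both genes.

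TBC1D30, the Rab GTPase-activating protein (chr12:64780516-64881032, plus strand), had 19.4, 19.1 and 17.7 CPM with asparagine and 10.0, 9.91 and 8.83 CPM without, a log2 difference of -0.96 ± 0.11. Under ISRIB without asparagine it had 11.1, 10.0 and 11.4 CPM, a log2 difference of 0.18 ± 0.11 from vehicle. These values touched those in vehicle without asparagine and stayed well below those with asparagine.

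**Figure D2:**
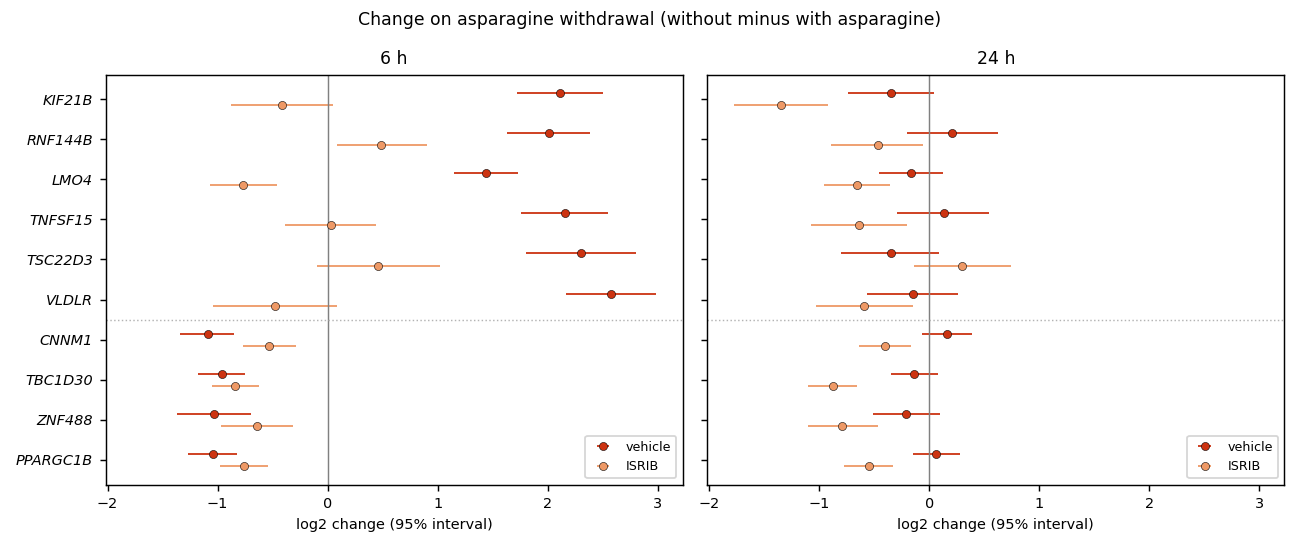
Difference in log2 level (no asparagine minus asparagine) for the 10 genes at 6 h and 24 h, in vehicle and in ISRIB, with 95% intervals. At 6 h in vehicle 6 genes lie above 0 and 4 below. With ISRIB at 6 h the intervals of the lower 4 and of LMO4 lie below 0. That of RNF144B, which did not pass the threshold, lies above 0. In vehicle at 24 h none of the 10 passed the threshold.

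Withdrawal in the presence of ISRIB was then tested at 6 h, to see which of these differences appeared when the drug was there throughout. The 4 genes that were lower in vehicle fell with ISRIB as well, and LMO4, which was higher in vehicle, fell too. The other raised genes did not pass the test. In all, 5 of 10 genes fell and 0 rose (edgeR quasi-likelihood test, Benjamini-Hochberg adjusted p at 0.05), against 0.666% of all genes tested that fell and 1.63% that rose (2.30% in either direction). In the 5 genes all 3 libraries without asparagine lay below the 3 with it, as in 5.68% of all genes. The median log2 change of the 10 genes was -0.50, against 0.00 over all genes. The ISRIB libraries without asparagine also entered the contrast that the choice used in part.

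LMO4 had 13.8, 18.1 and 16.6 CPM with ISRIB and asparagine, and the 9.18 to 9.85 CPM without asparagine lay below all 3. It fell by 0.77 ± 0.15 on the log2 scale (adjusted p = 0.00498, edgeR), which is 1.70-fold. In this gene the sign was opposite in the 2 drug arms, 1.44 in vehicle and -0.77 in ISRIB. The vehicle value comes from the contrast of the choice. The ISRIB libraries without asparagine also entered the choice in part, so nothing is read from the opposite sign.

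TBC1D30 had 19.5, 19.2 and 19.4 CPM with ISRIB and asparagine and fell by 0.84 ± 0.10 (adjusted p = 8.8e-05). PPARGC1B had 24.1, 21.7 and 24.4 CPM and fell by 0.76 ± 0.11 (adjusted p = 2.8e-04). Both showed no overlap between the media. ZNF488 had 13.9, 13.6 and 13.1 CPM and fell by 0.64 ± 0.16 (adjusted p = 0.0324). CNNM1 had 10.4, 9.74 and 9.91 CPM and fell by 0.53 ± 0.11 (adjusted p = 0.0126).

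Of the genes that did not pass, RNF144B had a log2 difference of 0.49 (95% interval 0.09 to 0.90, adjusted p = 0.250, edgeR) with all 3 libraries without asparagine above the 3 with it. TNFSF15 had 0.03 (-0.39 to 0.44), TSC22D3 0.46 (-0.10 to 1.02), KIF21B -0.41 (-0.88 to 0.05) and VLDLR -0.48 (-1.04 to 0.09). Fitted to the 2 groups compared alone, 0 of the 5 calls and 0 of all genes passed, with adjusted p from 0.139 for TBC1D30 to 0.483 for ZNF488 and CNNM1. Without a filter on low counts CNNM1 did not pass (0.143). Without the 3 libraries of steep GC decline, 3 of 10 passed (CNNM1 at 0.111 and ZNF488 at 0.210 did not). Leaving out only replicate 1 of ISRIB with asparagine or only replicate 3 of ISRIB without asparagine also gave 3. ZNF488 was also lost without replicate 2 or 3 of ISRIB with asparagine (adjusted p = 0.110 and 0.0750, edgeR). The same held without replicate 2 of ISRIB without asparagine (0.0696).

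In cells that had asparagine, ISRIB changed none of the 10 genes by the test at either time. At 6 h 0 of 10 genes passed, as did 0 of all 17409 genes (0%), and at an unadjusted p under 0.05 there were 0 of the 10 and 203 of all. At 24 h 0 of 10 passed, with 0% of all genes, and at an unadjusted p under 0.05 there were 0 of the 10 and 248 of all. DESeq2 and limma on the deposited log2 values also called 0 of the 10 at each time. The 6 h comparison shares its vehicle libraries with the contrast that chose the genes.

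Of the 4 lower genes, the 95% interval at 6 h was -0.16 to 0.26 for TBC1D30, -0.11 to 0.32 for PPARGC1B, -0.20 to 0.26 for CNNM1 and -0.37 to 0.27 for ZNF488 on the log2 scale. VLDLR had the largest difference in size, at -0.38 (-0.88 to 0.13), with 1.10, 0.726 and 1.14 CPM in ISRIB below the 3 vehicle libraries. TSC22D3, at -0.05 (-0.62 to 0.53), allowed a change of nearly the same size in either direction.

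**Figure D3:**
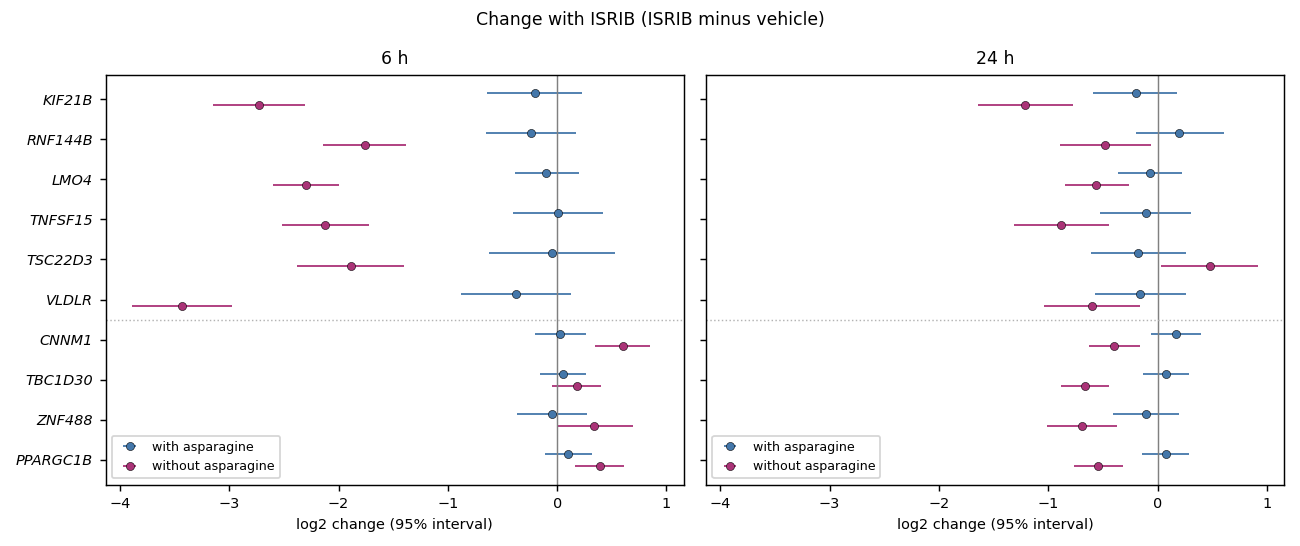
Difference in log2 level (ISRIB minus vehicle) for the 10 genes with and without asparagine, at 6 h and 24 h, with 95% intervals. With asparagine all intervals include 0; without asparagine at 24 h 8 of the 10 genes were lower with ISRIB past the threshold.

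By 24 h in vehicle the early differences were no longer detected. Of the 10 genes 0 passed the test for withdrawal, against 0.00574% of all genes, which is 1 gene, ASNS. At an unadjusted p under 0.05 there were 0 of the 10 and 1271 of all, and DESeq2 and limma called 0 of the 10. The log2 differences ran from -0.35 for KIF21B and TSC22D3 to 0.21 for RNF144B.

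TNFSF15 stood at 5.47, 4.70 and 3.77 CPM with asparagine and at 5.67, 5.31 and 4.31 CPM without, a difference of 0.13 (-0.29 to 0.54) where the 6 h value was 2.16. VLDLR stood at 2.35, 2.77 and 1.91 CPM with and at 2.14, 2.17 and 2.03 CPM without, a difference of -0.15 (-0.57 to 0.26). The groups overlapped for both. PPARGC1B stood at 20.4, 18.9 and 18.3 CPM with and at 20.8, 20.0 and 19.5 CPM without, a difference of 0.06 (-0.15 to 0.28). CNNM1 had 10.3, 8.88 and 8.80 CPM with and 10.3, 11.7 and 9.34 CPM without, 0.16 (-0.07 to 0.39). TBC1D30 and ZNF488 were lower in all 3 libraries without asparagine, as were 7.66% of all genes, with differences of -0.14 (-0.35 to 0.08) and -0.21 (-0.51 to 0.10).

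The difference between the 24 h and the 6 h response in vehicle contains the contrast of the choice and is described only. It was negative for the 6 raised genes, from -1.61 ± 0.20 for LMO4 to -2.73 ± 0.28 for VLDLR, and positive for the 4 lower ones, from 0.83 ± 0.15 for TBC1D30 to 1.26 ± 0.16 for CNNM1. Over all genes 1.03% passed downward and 0.195% upward, from which nothing is read here.

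With ISRIB, 24 h without asparagine lowered most of the 10 genes, whichever way they had differed at 6 h in vehicle. KIF21B fell the most, and LMO4, TNFSF15, VLDLR, CNNM1, TBC1D30, ZNF488 and PPARGC1B fell by smaller amounts. In all, 8 of 10 fell and 0 rose for withdrawal with ISRIB at 24 h, against 12.2% and 9.97% of all genes. The median log2 change was -0.62 over the 10 genes and 0.01 over all. Against vehicle without asparagine at 24 h, the ISRIB libraries gave 8 of 10 lower and 0 higher, against 11.6% and 10.1% of all genes, with a median of -0.58 and 0.00. Both comparisons share the 3 ISRIB libraries without asparagine, so their counts are not separate evidence.

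KIF21B stood at 4.07, 4.98 and 4.48 CPM in vehicle with asparagine, at 3.23, 4.2 and 3.14 CPM in vehicle without, at 4.38, 4.27 and 3.00 CPM in ISRIB with, and at 1.96, 1.38 and 1.17 CPM in ISRIB without. The last 3 libraries lay below the 9 others. The kinesin fell by 1.35 ± 0.21 on the log2 scale with withdrawal under ISRIB (adjusted p = 7.9e-05, edgeR) and by 1.21 ± 0.21 against vehicle (adjusted p = 3.9e-04).

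TBC1D30 stood at 15.4, 16.1 and 15.5 CPM in vehicle with asparagine, at 14.2, 13.9 and 14.6 CPM in vehicle without, at 16.7, 18.0 and 15 CPM in ISRIB with, and at 7.51, 9.76 and 9.82 CPM in ISRIB without. The group with both conditions was again the lowest, without overlap. It fell by 0.88 ± 0.11 with withdrawal under ISRIB (adjusted p = 4.4e-06) and by 0.66 ± 0.11 against vehicle (adjusted p = 1.6e-04).

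ZNF488 stood at 28.3, 26.6 and 26.5 CPM in vehicle with asparagine, at 21.6, 23.3 and 25.7 CPM in vehicle without, at 27.1, 24.7 and 23.9 CPM in ISRIB with, and at 16, 11.1 and 16.7 CPM in ISRIB without. Its fall was 0.79 ± 0.15 with withdrawal under ISRIB (adjusted p = 7.8e-04). PPARGC1B stood at 22.3, 20.0 and 18.4 CPM in ISRIB with asparagine and at 14.3, 13.1 and 13.9 CPM in ISRIB without, a fall of 0.55 ± 0.11 (adjusted p = 7.4e-04). CNNM1, at 10.7, 11.0 and 9.80 CPM against 7.47, 8.68 and 7.70 CPM, fell by 0.40 ± 0.11 (adjusted p = 0.0123). The groups did not overlap in any of the 3 genes, nor in 17.7% of all genes in this direction.

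LMO4 stood at 15.1, 16.4 and 18.8 CPM in ISRIB with asparagine and at 11.0, 8.82 and 12 CPM in ISRIB without, a fall of 0.66 ± 0.14 (adjusted p = 0.00220), close in size to its fall of 0.77 at 6 h. TNFSF15, at 4.97, 4.10 and 3.85 CPM against 3.39, 2.81 and 2.01 CPM, fell by 0.64 ± 0.21 (adjusted p = 0.0341). VLDLR, at 2.03, 1.77 and 2.61 CPM against 1.24, 1.68 and 1.28 CPM, fell by 0.59 ± 0.21 (adjusted p = 0.0480). That last call sat at the edge of the threshold, and VLDLR passed in 13 of 35 alternatives for withdrawal under ISRIB and in 16 of 35 for ISRIB against vehicle. In a fit to the 2 groups compared, TNFSF15 (adjusted p = 0.10), VLDLR (0.135) and CNNM1 (0.0960) did not pass, which left 5 of 10. Without a filter on low counts CNNM1 (0.145) and VLDLR (0.154) did not pass, nor did CNNM1 (0.182) and VLDLR (0.166) against vehicle, and without the 3 libraries of steep GC decline VLDLR did not (0.173). Leaving out 1 library of that comparison also lost TNFSF15 without replicate 1 or 2 of ISRIB with asparagine (0.110 and 0.0516) or replicate 2 or 3 of ISRIB without (0.0647 and 0.158), and CNNM1 without the first of ISRIB without asparagine (0.0678). Against vehicle, CNNM1 was lost without replicate 1 or 3 of ISRIB (0.0801 and 0.0547) or the second of vehicle (0.0733), and LMO4 without the third of vehicle (0.0502).

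The remaining 2 genes did not pass at 24 h. RNF144B had all 3 libraries without asparagine below those with it, with 3.80, 2.88 and 3.68 CPM in ISRIB with asparagine and 2.24, 2.86 and 2.34 CPM without, a log2 difference of -0.47 (-0.89 to -0.06, adjusted p = 0.0961). Against vehicle without asparagine RNF144B had -0.48 (adjusted p = 0.0924), and it passed there without the 3 libraries of steep GC decline (0.0478). TSC22D3 had 5.38, 4.93 and 6.18 CPM with and 6.15, 5.52 and 8.64 CPM without, a difference of 0.30 (-0.14 to 0.74, adjusted p = 0.325), the only positive value of the 10. Beside these results, COL1A1 rose by a log2 value of 0.82 ± 0.22 and PECAM1 fell by 2.19 ± 0.31 with withdrawal under ISRIB at 24 h (adjusted p = 0.0107 and 3.7e-05), with COL1A1 at most 10.7 and PECAM1 at most 4.53 CPM in group means. Their part in the result was not tested.

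The interaction of medium and drug at 24 h tested directly whether withdrawal acted differently with ISRIB. It passed for 4 of 10 genes, all lower with ISRIB, against 5.59% of all genes lower and 3.47% higher. KIF21B had an interaction of -1.0 ± 0.28 (adjusted p = 0.0293, edgeR), TBC1D30 of -0.74 ± 0.15 (0.00350), PPARGC1B of -0.62 ± 0.15 (0.0131) and CNNM1 of -0.57 ± 0.16 (0.0283). The other genes ran from -0.77 for TNFSF15 (adjusted p = 0.0935) to 0.65 for TSC22D3 (0.159). ZNF488, at -0.58 (0.0814), passed by DESeq2 (0.0350), with the GC offset (0.00394), with the GC offset and replicate block (9.0e-04), without the 3 libraries of steep GC decline (0.0307) and without the third replicate of ISRIB without asparagine at 6 h alone (0.0355). TBC1D30 and PPARGC1B passed in a fit to the 4 groups alone, where KIF21B (0.0633) and CNNM1 (0.0724) did not, and without any filter PPARGC1B (0.0580) and CNNM1 (0.178) did not, so each left 2. Leaving out 1 library lost KIF21B in 6 cases (adjusted p up to 0.0882) and CNNM1 in 7 (up to 0.0840). Counts of 2 followed without the third replicate of vehicle with asparagine, the second of vehicle without, the second of ISRIB with or the third of ISRIB without, all at 24 h.

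The interaction at 6 h contains the contrast of the choice. As a description it was -3.05 ± 0.34 for VLDLR, -2.52 ± 0.29 for KIF21B, -2.20 ± 0.20 for LMO4 and -2.13 ± 0.27 for TNFSF15, and it was 0.57 ± 0.16 for CNNM1 and 0.13 ± 0.15 for TBC1D30. KIF21B thus had a negative value at both times, and CNNM1 a positive one at 6 h and a negative one at 24 h.

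Whether withdrawal under ISRIB differed between 24 h and 6 h was tested for each gene, and 0 of 10 passed, against 2.67% of all genes. The comparison includes the ISRIB libraries without asparagine at 6 h, which the choice used in part. At an unadjusted p under 0.05 there were 3 of the 10 and 3138 of all. RNF144B had a difference of -0.97 ± 0.28 (adjusted p = 0.0681, edgeR) and KIF21B of -0.94 ± 0.31 (0.109), while TBC1D30 (-0.05, -0.35 to 0.26) and LMO4 (0.11, -0.32 to 0.53) had intervals around 0. DESeq2 called RNF144B (0.0266), as did the fit with replicate number as a block (0.0477), and a correction for GC content called RNF144B (0.0410) and KIF21B (0.00925).

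Levels of some of the genes also differed between the times in groups that the choice did not use, where time in fresh medium and time with the drug cannot be told apart. With ISRIB and asparagine, 4 of 10 genes rose from 6 to 24 h and 0 fell, against 8.75% and 8.62% of all genes. TSC22D3 rose by 1.81 ± 0.24 on the log2 scale (adjusted p = 2.4e-05, edgeR), from 1.64, 1.5 and 1.53 CPM to 5.38, 4.93 and 6.18 CPM. VLDLR rose by 1.10 ± 0.22 (adjusted p = 0.00138), ZNF488 by 0.90 ± 0.15 (2.7e-04) and KIF21B by 0.85 ± 0.20 (0.00464). In each of these 4 genes the 24 h libraries lay above the 6 h ones, as in 13.6% of all genes. KIF21B did not pass in a fit to the 2 groups (0.0913). In the same comparison the endothelial markers PECAM1 rose by 1.60 ± 0.29 (5.5e-04) and CDH5 fell by 2.49 ± 0.32 (1.3e-05), and of the line's own epithelial markers EGFR fell by 1.04 ± 0.13 (1.1e-05) and CDH1 by 0.26 ± 0.08 (0.0208). Their part in the result was not tested.

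The order of levels over the 8 groups is given as a description. The genes were chosen by their change in vehicle without asparagine at 6 h. The highest or lowest place of that group is therefore not read as a result. For KIF21B, RNF144B, LMO4, TNFSF15 and VLDLR, vehicle without asparagine at 6 h was the highest of the 8 groups and did not overlap with the next. For TSC22D3 the same group led at 7.95 ± 1.40 CPM (SD, n = 3) but overlapped with ISRIB without asparagine at 24 h at 6.77 ± 1.65 CPM, and all 4 groups at 24 h lay above the other 6 h groups. RNF144B had no further break: from 4.27 ± 1.13 down to 2.48 ± 0.333 CPM each group overlapped with the next. LMO4 had 5 overlapping groups between 15.6 ± 1.39 and 17.6 ± 1.07 CPM, and then the 2 ISRIB groups without asparagine, at 10.6 ± 1.62 and 9.50 ± 0.338 CPM, which overlapped with each other.

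Among the lower genes, CNNM1, ZNF488 and PPARGC1B had vehicle without asparagine at 6 h as the lowest group, at 4.59 ± 0.219, 6.85 ± 0.765 and 10.6 ± 1.25 CPM. For TBC1D30 the lowest group was ISRIB without asparagine at 24 h, at 9.03 ± 1.32 CPM, which overlapped with vehicle without asparagine at 6 h at 9.59 ± 0.659 CPM. ZNF488 was the only one of the 4 with all groups with asparagine higher at 24 h than at 6 h. Its highest group was vehicle with asparagine at 24 h, at 27.1 ± 0.972 CPM.

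Relatives and partners of the 10 genes were counted from a list of 33 symbols, of which 31 were in the table and 26 passed the filter. In withdrawal with vehicle at 6 h, 2 rose and 1 fell, against 3.31% and 1.26% of all genes. TSC22D1, a relative of TSC22D3, rose by 0.92 ± 0.11 on the log2 scale (adjusted p = 5.9e-06, edgeR), and RELN, the ligand of VLDLR, rose by 1.12 ± 0.24 (0.00533). LRP8, the other reelin receptor, fell by 0.47 ± 0.06 (2.3e-05), in the opposite direction to VLDLR. With ISRIB at 6 h TSC22D1 again rose by 0.74 ± 0.11 (3.4e-04) and LRP8 fell by 0.56 ± 0.06 (1.2e-05), and TSC22D2 rose by 0.47 ± 0.10 (0.0126). TSC22D1 and LRP8 thus passed in both drug arms, in the same direction, and the median of the 26 was -0.11 in vehicle and 0.05 in ISRIB.

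At 24 h with ISRIB, 3 of the 26 rose and 6 fell with withdrawal, against 9.97% and 12.2% of all genes. The falls included LRP8, by 1.5 ± 0.06 (adjusted p = 1.2e-12, edgeR), from 126 to 44.7 CPM, and MYLIP, a ubiquitin ligase that acts on VLDLR and LRP8, by 0.74 ± 0.16 (0.00256). RELN rose by 1.86 ± 0.30 (1.5e-04), from 0.813 to 3.03 CPM. RNF144A, the paralog of RNF144B, fell by 0.86 ± 0.24 (0.0115) and LMO2, of the LMO4 family, by 1.67 ± 0.43 (0.00772). LMO2 was near the floor, with 11, 12 and 15 reads in ISRIB with asparagine and 5, 4 and 2 without. The interaction at 24 h passed for LRP8 at -1.43 ± 0.09 (2.4e-09) and RELN at 1.78 ± 0.45 (0.0179). In vehicle at 24 h, 0 of the 26 passed.

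Several relatives and partners were at very low levels. Group means were at most 0.627 CPM for LMO2, 0.333 for PRDM8, 0.201 for LDB2, 0.0508 for LMO1 and 0.0306 for DAB1. TNFRSF25, the receptor of TNFSF15, was at most 1.01 CPM and PPARGC1A, the better known paralog of PPARGC1B, at most 0.115 CPM in group means. KIF21A, the paralog of KIF21B, was between 35.2 and 55.6 CPM and passed in none of the comparisons given here.

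The list beside TSC22D3 held 7 genes, the glucocorticoid receptor NR3C1 and 6 genes known to respond to it, and 6 of the 7 passed the filter. At 6 h in vehicle 2 rose with withdrawal, against 3.31% of all genes, KLF9 by 1.51 ± 0.18 (adjusted p = 6.2e-06, edgeR) and the receptor itself, NR3C1, by 0.81 ± 0.14 (8.4e-04). Without asparagine, ISRIB lowered KLF9 by 1.29 ± 0.17 (5.2e-05) at 6 h. The others tested, FKBP5, PER1, DUSP1 and SGK1, did not pass in either comparison, and the median of the 6 was 0.49 for withdrawal.

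The genes whose levels ran most alike over the 8 group means were found among 11555 genes with at least 5 CPM on average. They are given as a description, since the groups share time, medium and drug. TNFSF15 ran closest to GARS (Pearson r = 0.993), glycyl-tRNA synthetase, and MTHFD2 (0.991), a mitochondrial folate enzyme. LMO4 ran with GPT2 (0.990), a transaminase, and JDP2 (0.978), RNF144B with ETV5 (0.990) and C5orf28 (0.984), and VLDLR with DDIT4 (0.981), an inhibitor of mTORC1 signalling, and C1orf226 (0.976). KIF21B ran with SLC16A4 (0.976) and TPBG (0.966), and TSC22D3 with TAF8 (0.984) and HBP1 (0.980). Of the lower genes, CNNM1 ran with MAP6D1 (0.965) and HHEX (0.960), PPARGC1B with HHEX (0.973) and AMER1 (0.962), TBC1D30 with TMEM97 (0.985) and MTFMT (0.983), and ZNF488 with NOL4L (0.993) and NAPB (0.988).

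**Figure D4:**
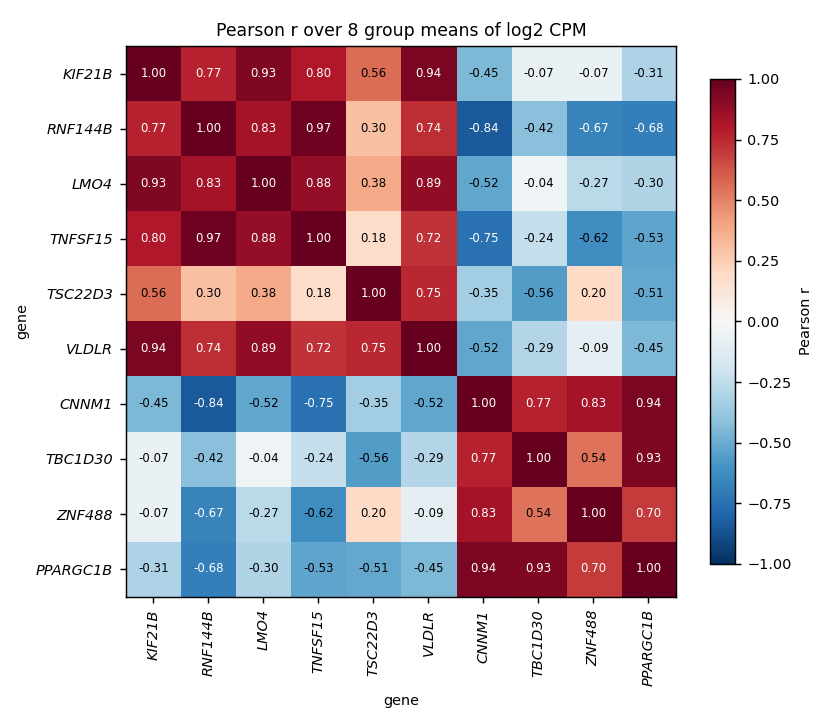
Pearson correlation between each pair of the 10 genes over the 8 group means of log2 CPM. The highest value is 0.97 for RNF144B with TNFSF15 and the lowest is -0.84 for RNF144B with CNNM1.

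Among themselves the genes were not of one pattern. The 15 pairs of raised genes correlated at a median r of 0.77 over the 8 group means, from 0.18 for TNFSF15 with TSC22D3 to 0.97 for RNF144B with TNFSF15. The 6 pairs of lower genes had a median of 0.80, from 0.54 for TBC1D30 with ZNF488 to 0.94 for CNNM1 with PPARGC1B. Across the sets the 24 pairs ran from -0.84 to 0.20, with a median of -0.43. TSC22D3 stood apart from RNF144B (0.30) and LMO4 (0.38) and was closer to VLDLR (0.75), which also rose with time. These values come from the libraries by which the genes were chosen and carry no test.

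In length the 10 genes were above the typical gene and in level below it. Their exon length had a median of 7.15 kb, against 3.96 kb over all tested genes, and their transcript GC content a median of 47.2% against 47.7%. Per length, the mean level over 24 libraries ran from 0.249 RPKM for VLDLR to 4.78 RPKM for ZNF488, with a median of 1.16 RPKM where all tested genes had 4.08. KIF21B, at 0.314 RPKM, was the second lowest. The lowest raw count of a gene in a library was 10, for VLDLR, and its highest was 170, whereas LMO4 ran from 152 to 1209. The biological coefficient of variation was lowest for CNNM1 (0.0755) and TBC1D30 (0.0757) and highest for TSC22D3 (0.166) among the 10.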

How the data were processed

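RNA sequencing of PC9 cells gave 24 libraries in 8 groups of 3. Per the submitters' processing notes, Bowtie2, featureCounts and DESeq2 were used with hg38; their versions, their roles and the strand setting are not given in the sources used here. Counts of reads per gene were deposited by the authors for 37411 genes, beside a table of log2 values after a variance-stabilizing transformation with a floor of 3.45.

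In R 4.3.3 with edgeR 4.0.16, library sizes were corrected by TMM (0.902 to 1.08), and filterByExpr kept 17409 genes, dropping at most 0.0980% of counts. A mean per group was fitted to all 24 libraries, and edgeR's quasi-likelihood F test was applied to each contrast, with Benjamini-Hochberg adjustment over all genes of a comparison at 0.05. The procedure was tested on simulated data. Group SDs are of 3 libraries, and intervals are 95% intervals of the fit. With 3 replicates, p-values measure the spread between these samples only.

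All 10 members are named. Relatives, glucocorticoid genes and markers came from lists, whose counts cover every gene tested, though some genes of the lists are not reported here; likeness is the Pearson correlation over the 8 group means of log2 CPM with a prior count of 2, and the 2 nearest genes are named. The members and lists were chosen with earlier results of these data known.

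Replicate numbers were judged to pair the libraries where all 3 same-numbered pairs of deviations from group means correlated above 0.1. The reported tests did not use the pairing, which entered only through the replicate block among the alternatives. This held in 3 comparisons: vehicle withdrawal at 6 h, with r from 0.304 to 0.339, vehicle withdrawal at 24 h, with r from 0.187 to 0.350, and the ISRIB effect without asparagine at 6 h, with r from 0.327 to 0.470.

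The alternatives tried were a DESeq2 1.42.0 fit, scaling by upper quartile or RLE, testing unfiltered genes, requiring 5 CPM in 3 libraries, a fit to the groups compared, the replicate block, limma 3.58.1 on the deposited log2 values, a GC offset alone and with the block, and each library left out. Leaving out the 3 libraries with the steepest decline with GC was chosen after seeing the data. Identifiers were matched to GENCODE 29 without version (36620 of 37411), and promoter windows came from RefSeq.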

Additional observations from a re-analysis of the deposited data

Results flagged for a closer look

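In 4 of the 10 genes the response to withdrawal at 24 h differed between the drug arms by the test of the interaction itself, against 5.59% of all genes lower and 3.47% higher. The interaction was -1.0 for KIF21B, -0.74 for TBC1D30, -0.62 for PPARGC1B and -0.57 for CNNM1 on the log2 scale, all towards a lower level with ISRIB. In vehicle the withdrawal differences of these genes were -0.35, -0.14, 0.06 and 0.16, and with ISRIB they were -1.35, -0.88, -0.55 and -0.40 in the same order. In a fit to the 4 groups compared KIF21B (adjusted p = 0.0633, edgeR) and CNNM1 (0.0724) did not pass.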

How the results depend on the processing

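Of 4550 values recomputed for the 10 genes under the alternatives, 4440 were counted as unchanged. These kept their side of the threshold or, where only described, moved by less than the square root of 3 times the SE. Of the rest, 87 lost a call, 15 gained one, 8 moved further and 0 changed sign in a called value. For withdrawal with ISRIB at 6 h, 5 of 10 genes passed in the reported fit, 0 in a fit to the groups compared and 3 without the 3 libraries of steep GC decline, and leaving out single libraries gave 3 to 5. For withdrawal with ISRIB at 24 h, 8 passed, 5 in a fit to the groups compared, and 6 to 8 with single libraries left out; ISRIB without asparagine at 24 h gave 8, and 6 to 8 likewise. The interaction at 24 h gave 4, with 2 without a filter, 2 in a fit to the groups compared and 2 to 5 with single libraries left out. The 24 h against 6 h difference under ISRIB gave 0, with 1 by DESeq2, 1 with the replicate block, 2 with the GC offset, 2 with the GC offset and replicate block, and 0 to 1 with single libraries left out. For 24 h against 6 h with ISRIB and asparagine the count stayed at 4 with any 1 library left out, and for ISRIB with asparagine at either time and withdrawal with vehicle at 24 h it stayed at 0. Fits to the groups compared take the spread from fewer libraries, and the cause of these moves was not tested.

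The replicate block called TNFSF15 in the interaction at 24 h (adjusted p = 0.0465, edgeR) and RNF144B in the 24 h against 6 h difference under ISRIB (0.0477), and changed no other call of a tested gene. Whether the numbers pair the libraries was judged only for comparisons of 2 groups, and 16 of 24 libraries had their highest correlation with a library of the same number.

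The limma fit on the deposited log2 values, which compress low counts, gave smaller described differences for withdrawal with vehicle at 6 h: 1.76 for KIF21B, 1.79 for TSC22D3 and 1.95 for VLDLR, and for ISRIB without asparagine at 6 h -2.19 for KIF21B and -2.42 for VLDLR; the interaction at 6 h was -2.01 for KIF21B and -2.21 for VLDLR, and the 24 h against 6 h difference in vehicle -2.05 for VLDLR.

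Counts over all genes also moved with the settings. For withdrawal with ISRIB at 6 h 400 genes passed, 695 by DESeq2, 0 in a fit to the groups compared, 1427 with the GC offset and 1788 with the GC offset and block. For withdrawal with ISRIB at 24 h 3855 passed, 1544 in a fit to the groups compared, 5965 with the GC offset and 6519 with the GC offset and block. For ISRIB without asparagine at 24 h 3778 passed, 5840 with the GC offset and block and 6456 without the 3 libraries. For the interaction at 24 h 1577 passed, and 2432 to 3642 by DESeq2, without a filter or with either GC offset. For the 24 h against 6 h difference under ISRIB 464 passed, 53 in a fit to the groups compared, 290 without the 3 libraries, and 875 to 1891 by DESeq2, without a filter or with either GC offset. For 24 h against 6 h with ISRIB and asparagine 3024 passed, 967 in a fit to the groups compared, 5302 with the GC offset and 5802 with the GC offset and block. For withdrawal with vehicle at 24 h 1 passed, 5 by DESeq2, 186 without a filter and 8 with the GC offset and block, and without a filter ISRIB with asparagine gave 7 at 6 h and 8 at 24 h. For withdrawal with vehicle at 6 h 795 passed, 1429 in a fit to the groups compared and 1815 to 2196 with the GC offsets or without the 3 libraries. Leaving out single libraries gave 188 to 540 genes for withdrawal with ISRIB at 6 h, 2415 to 4519 at 24 h, 2073 to 4694 for ISRIB without asparagine at 24 h, 806 to 2507 for the interaction at 24 h, 223 to 641 for the 24 h against 6 h difference under ISRIB, 1799 to 3494 for 24 h against 6 h with ISRIB and asparagine and 479 to 1007 for withdrawal with vehicle at 6 h. Low counts limit precision in VLDLR, KIF21B and TSC22D3, with as few as 10, 21 and 22 reads in a library.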
